A study of Mus musculus with 8 samples.

Results

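The genes of polyamine synthesis, control and catabolism were followed in 4 mouse fibrosarcoma cell lines. The set holds 9 genes chosen by name from 18768 in the deposited count table: Odc1, Amd1, Srm, Azin1, Oaz1, Oaz2, Smox, Paox and Sat2. Each of the 9 had reads in all libraries and was tested. The tumors had been induced by subcutaneous methylcholanthrene (MCA), a chemical carcinogen, in IRF8 knock-out and wild-type (WT) C57BL/6 mice. Tumor cells were then kept in culture for at least 10 passages without further treatment. Of the lines, MC010 and MC011 are labelled IRF8 KO and the other two, MC654 and MC659, WT. Each line comes from 1 tumor and has 2 libraries, so the labels compare 4 libraries with 4 but only 2 lines with 2. No label says that the 2 libraries of a line came from separate cultures, and p-values that use their spread may measure technical variation only. The knock-out was that of the host mouse, so that tumors of the IRF8 KO label also grew in a host with the deletion. The ages of the mice were not given in the sources used here.

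Polyamines are small positively charged molecules that bind nucleic acids and are needed for growth. Ornithine decarboxylase (ODC), encoded by Odc1, makes putrescine from ornithine. S-adenosylmethionine decarboxylase, encoded by Amd1, supplies the aminopropyl groups that spermidine synthase, encoded by Srm, adds to putrescine. Antizymes, encoded by Oaz1 and Oaz2, bind ODC, send it to the proteasome and lower polyamine uptake. Antizyme inhibitor 1, encoded by Azin1, resembles ODC, has no decarboxylase activity and binds antizyme in its place. On the catabolic side, spermine oxidase (Smox) turns spermine back into spermidine, and polyamine oxidase (Paox) acts on acetylated polyamines. Sat2 belongs to the spermidine and spermine acetyltransferase family. Fast-growing tumor cells are known for high ODC activity, and Odc1 is a textbook target of the MYC transcription factor.

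The antizyme messages show the control of this pathway in their sequence. Polyamines raise a +1 frameshift in which the ribosome passes over a single base at an in-frame stop codon, and only the shifted frame gives full antizyme. The sites are shown because RNA counts of Oaz1 and Oaz2 cannot tell whether a message was read through the shift. Both are 60-base windows on the + strand of GRCm38 within coding exons of GENCODE M21, chr10:80828265-80828324 for Oaz1 and chr9:65686242-65686301 for Oaz2. Capitals mark the last codon of the first frame followed by the stop codon.
Oaz1: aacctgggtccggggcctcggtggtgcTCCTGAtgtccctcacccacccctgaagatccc
Oaz2: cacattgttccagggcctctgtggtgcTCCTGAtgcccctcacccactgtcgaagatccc
The windows are identical at 49 of 60 positions, and the capital letters are the same in both. The annotated reading frame leaves out the fourth capital, the T that begins the stop codon, at base 80828295 of chromosome 10 and base 65686272 of chromosome 9.

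The libraries held 74063616 to 116206078 counts, and 15153 genes passed the filter on low counts. Levels are given as CPM, which are counts scaled by library size and TMM factor. The study genotyped the 4 lines by PCR on genomic DNA, with primers for the WT and the mutant allele, and reported genotypes that match the labels. Irf8 RNA nevertheless ran opposite to the labels. It had 442 and 347 counts in MC010, 32 and 10 in MC011, 1 and 2 in MC654 and 1 and 0 in MC659. Which part of the gene the deletion removes is not given in the sources used here, and the comparisons are therefore named by label. Mesenchymal markers were present in every library, at a summed 9732 to 10510 CPM in the libraries labelled IRF8 KO and 14410 to 16150 CPM in those labelled WT, with all 8 of the 8 listed genes tested. They did not move as a group: Fn1 averaged 1587 against 7973 CPM and was called lower, while Pdgfra (258 against 18.3 CPM) and S100a4 (90.6 against 20.1 CPM) were called higher. Of 6 hematopoietic markers, 4 were in the table, and they summed to 5.72 to 7.38 CPM against 9.67 to 11.5 CPM, most of it Cd68. Csf1r averaged 0.3485 against 1.336 CPM and was called lower. The 3 endothelial markers summed to at most 0.789 CPM, and Myod1 and Des, the 2 muscle markers in the table, to at most 3.08 CPM. The 4 epithelial markers summed to 33.3 to 565 CPM in the libraries labelled IRF8 KO and to 114 to 129 CPM in those labelled WT. Krt8 and Krt18 were high in MC010 (means of 284 and 264 CPM). Epcam and Cdh1 were low there, at means of 0.340 and 0.00874 CPM, below MC011 (0.995 and 0.311 CPM). In MC010 against the WT lines Krt8, Krt18 and Epcam were called higher and Cdh1 lower, so these markers did not move as a group either. The part of these markers in the results was not tested. In bulk RNA, fewer cells of a type and less RNA per cell cannot be told apart.

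The first question was which polyamine genes differ between the labels. With the label IRF8 KO, Odc1, Azin1 and Smox were higher by 1.59-, 1.72- and 1.65-fold, and Sat2 was lower, at 0.585 of the WT level. Amd1, Srm, Paox, Oaz1 and Oaz2 were not called. A gene was called at an adjusted p under 0.05 in edgeR's quasi-likelihood test and an absolute log2 fold change above 0.59, the thresholds of the study. Thus 4 of 9 members were called, 3 higher and 1 lower, where 22.5% of all genes tested were called, 13.7% higher and 8.72% lower. The median absolute log2 fold change was 0.36 for the members and 0.36 for all genes tested. No member was called when the counts of each line were added together (2 lines against 2), where 0 of all genes were called. There 2 members had an unadjusted p under 0.05, as had 3658 of all genes. With the line as a random block in limma-voom, Azin1 was the only member called, and 1876 of all genes were called. Leaving out line MC659 also left 0 members called in edgeR, where 1884 of all genes were called. There 4 members and 5242 of all genes had an unadjusted p under 0.05. Leaving out MC654 left Smox and Sat2, with 2079 of all genes called, and leaving out MC010 left Sat2, with 4735 of all genes. Without MC011, 5 members and 5827 of all genes were called, with Oaz2 added (log2 0.61, adjusted p = 2.50e-06).

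**Figure D1:**
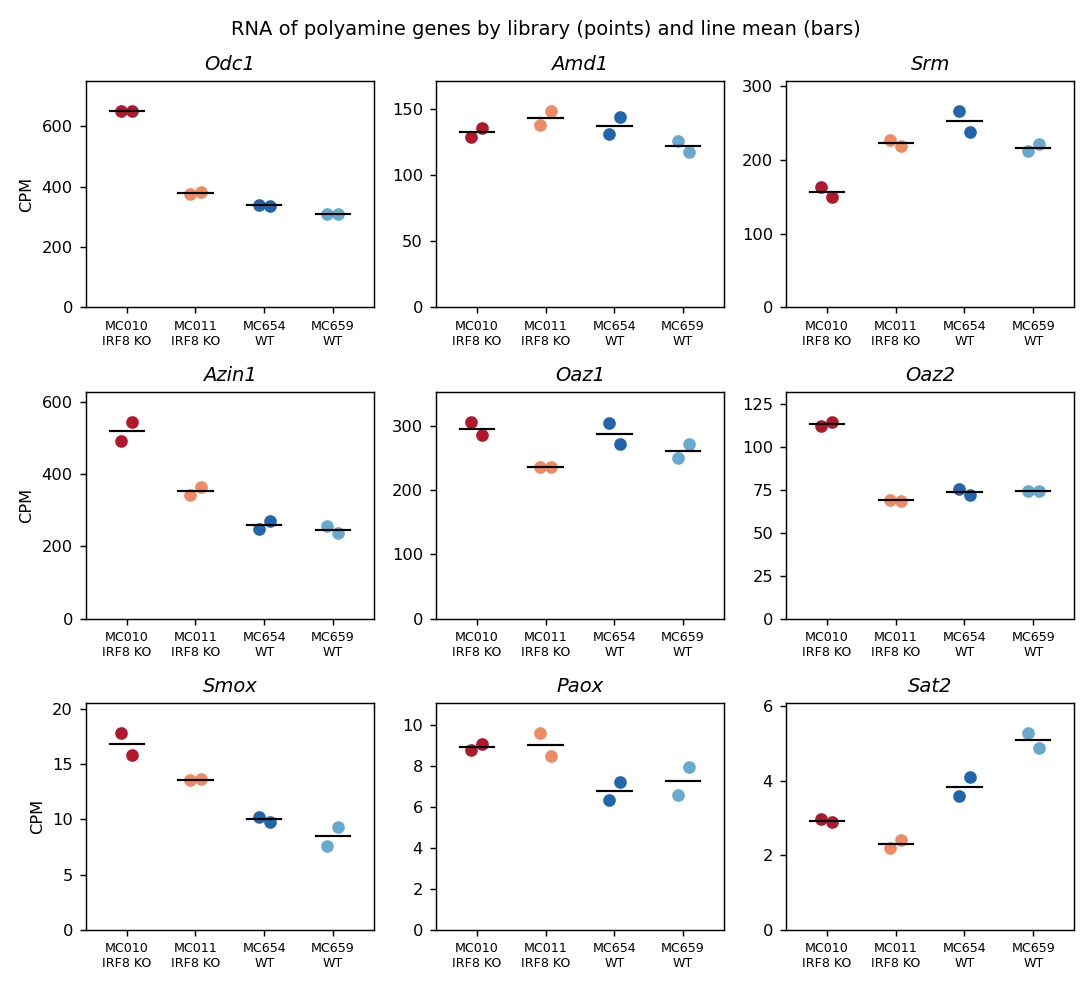
Level of each of the 9 polyamine genes in CPM, with an axis that starts at 0 in every panel. Points are the 2 libraries of a line, horizontal bars are line means, red and orange mark the lines labelled IRF8 KO and the blues those labelled WT. Odc1 stands at 653 and 652 CPM in MC010 and at 309 to 383 CPM in the other libraries, and Sat2 is at most 2.96 CPM in the libraries labelled IRF8 KO and at least 3.58 CPM in those labelled WT.

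In synthesis, Odc1 (chr12:17544794-17551505) separated MC010 from the other lines. It had 653 and 652 CPM in MC010, 378 and 383 in MC011, 340 and 338 in MC654, and 312 and 309 in MC659. The groups did not overlap, but MC011 lay much closer to the WT lines than to MC010. The mean was 516 ± 157 CPM (SD, n = 4 libraries) for the label IRF8 KO and 325 ± 16.4 CPM for WT, a log2 fold change of 0.67 (SE 0.20, adjusted p = 0.0310). With a contrast of lines, MC010 was 2.01-fold above the WT lines (log2 1.01, SE 0.03, adjusted p = 3.28e-13), and MC011 was 1.17-fold above them (log2 0.23, SE 0.03, adjusted p = 2.38e-05), under the fold threshold. MC010 also exceeded MC011 by 1.72-fold (log2 0.78, adjusted p = 1.36e-10). The call by label was fragile: without line MC010 the change was 0.21 on the log2 scale, and the adjusted p exceeded 0.05 in 6 of the 8 fits that left out a single library, up to 0.0814. On line sums it was 0.297.

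Amd1 (chr10:40287458-40302186), the gene of the second decarboxylase, was the most even of the members, with line means that spanned 0.23 on the log2 scale. It had 129 and 136 CPM in MC010, 138 and 149 in MC011, 131 and 143 in MC654, and 126 and 118 in MC659. The ranges of the labels overlapped, and the log2 fold change was 0.09 (SE 0.07, adjusted p = 0.386). Its nearest copy, Amd2, is identical at 99.56% of 3204 aligned transcript bases and had only 47 to 73 counts per library. Reads that fit both genes cannot be assigned with certainty.

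Srm (chr4:148591503-148594993), which makes spermidine, had its lowest values in MC010. It had 164 and 150 CPM in MC010, 227 and 219 in MC011, 267 and 239 in MC654, and 212 and 221 in MC659. Both MC010 libraries were below all others, and MC011 lay inside the range of the WT lines. By label the log2 fold change was -0.31 (SE 0.15, adjusted p = 0.143). Between MC010 and the WT lines it was -0.58 (SE 0.05, adjusted p = 6.56e-08), just short of the fold threshold, and it crossed that threshold with upper-quartile scaling (-0.59) and in 3 fits that left out a library. MC654 exceeded MC659 by 0.22 on the log2 scale (adjusted p = 0.0166), so part of the spread lay within the WT label.

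Among the regulators, Azin1 (chr15:38487427-38519266) gave the largest fold change by label among the members called higher. It had 493 and 546 CPM in MC010, 344 and 364 in MC011, 248 and 271 in MC654, and 255 and 239 in MC659. Both lines labelled IRF8 KO were above both WT lines, and MC010 was above MC011. The means were 437 ± 98.2 and 253 ± 13.9 CPM (SD, n = 4 libraries each), a log2 fold change of 0.79 (SE 0.15, adjusted p = 0.00474). MC010 was 2.05-fold above the WT lines (adjusted p = 3.17e-11) and MC011 1.40-fold (adjusted p = 4.90e-07), the second below the fold threshold. The difference between MC010 and MC011, 0.55 on the log2 scale (adjusted p = 7.49e-07), was also below it. The adjusted p was 0.170 on line sums, 0.0585 without MC654 and 0.0771 without MC659, and the log2 fold change was 0.46 without MC010. An antisense gene, Gm49077, shares 358 exon bases with Azin1 but had at most 12 counts in any library.

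The antizyme genes differed from each other. Oaz1 (chr10:80826656-80829290) had 307 and 285 CPM in MC010, 236 and 237 in MC011, 304 and 272 in MC654, and 250 and 272 in MC659. The labels overlapped fully (log2 fold change -0.04, SE 0.10, adjusted p = 0.775), and the sign turned in 5 alternatives. Oaz2 (chr9:65668001-65690300) had 112 and 115 CPM in MC010, against 68.6 to 75.6 CPM in the other 6 libraries. Only MC010 stood apart: it was 1.53-fold above the WT lines (log2 0.61, SE 0.04, adjusted p = 1.88e-09) and 1.65-fold above MC011 (log2 0.72, adjusted p = 3.70e-09). MC011 was at -0.10 on the log2 scale against the WT lines (adjusted p = 0.0410), and by label Oaz2 was not called (log2 0.30, SE 0.18, adjusted p = 0.237). Without MC010 the log2 fold change by label was -0.12. A processed copy, Oaz1-ps, is identical to Oaz1 at 99.85% of 681 aligned bases and had 50 to 134 counts. The aligned Oaz1 transcript has 1071 bases. Reads that fit both Oaz1 and its copy cannot be assigned with certainty, so the level of Oaz1 is uncertain.

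In catabolism, Smox (chr2:131491496-131525922) was called higher by label. It had 17.9 and 15.8 CPM in MC010, 13.6 and 13.7 in MC011, 10.3 and 9.74 in MC654, and 7.64 and 9.29 in MC659. All libraries labelled IRF8 KO were above all WT libraries. The means were 15.2 ± 2.05 and 9.24 ± 1.14 CPM (SD, n = 4 libraries each), a log2 fold change of 0.72 (SE 0.14, adjusted p = 0.00456). Against the WT lines the log2 difference was 0.87 (SE 0.08) in MC010, which was called, and 0.56 (SE 0.09) in MC011, which fell under the fold threshold. The direct difference of MC010 from MC011 was 0.31 (adjusted p = 0.0117), also under it. On line sums the adjusted p by label was 0.203, without MC659 it was 0.0608, and without MC010 the log2 fold change was 0.54.

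Paox (chr7:140115799-140137224), the oxidase of acetylated polyamines, had 8.81 and 9.10 CPM in MC010, 9.64 and 8.49 in MC011, 6.34 and 7.24 in MC654, and 6.62 and 7.98 in MC659. The labels did not overlap, and the 2 lines of each label lay close together. The log2 fold change of 0.36 (SE 0.12, adjusted p = 0.0454) was under the fold threshold. Paox shares 142 exon bases with Echs1 on the opposite strand, which had up to 6892 counts per library. Whether the counting used strand is not given in the sources used here, so Paox reads in that stretch are uncertain.

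Sat2 (chr11:69622024-69623870) was the only member called lower by label. It had 2.96 and 2.88 CPM in MC010, 2.20 and 2.41 in MC011, 3.58 and 4.11 in MC654, and 5.29 and 4.88 in MC659. These CPM rest on 190 to 467 counts. The groups did not overlap, MC011 was lowest and MC659 highest. The means were 2.61 ± 0.370 and 4.47 ± 0.766 CPM (SD, n = 4 libraries each), a log2 fold change of -0.77 (SE 0.19, adjusted p = 0.0129). Sat2 was called lower in MC011 against the WT lines (log2 -0.94, SE 0.13, adjusted p = 1.23e-05) and in MC010 against them (log2 -0.60, SE 0.13, adjusted p = 0.000594), where it was just past the threshold and fell short of it in 3 fits that left out a library. MC654 was 0.40 below MC659 on the log2 scale (adjusted p = 0.0703). The adjusted p by label was 0.308 on line sums and 0.145 without MC659. Sat2 is also among genes the study picked from these libraries, so its direction is not independent evidence.

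**Figure D2:**
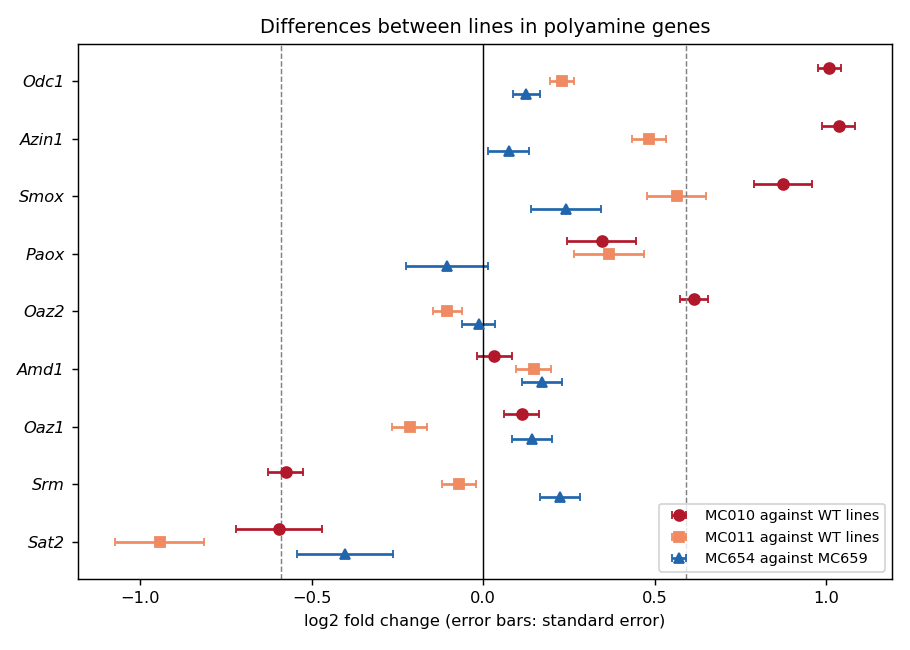
Log2 fold change with its standard error for each of the 9 polyamine genes in 3 contrasts from the fit with 1 group per line. Circles are MC010 against the WT lines, squares are MC011 against the WT lines, triangles are MC654 against MC659, and dashed lines mark 0.59 in either direction. Odc1, Azin1, Smox and Oaz2 lie past the right line in MC010, Sat2 lies past the left line in MC011 and at it in MC010, and no triangle passes either line.

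The lines were also compared singly. MC010 differed from the WT lines in 5 of 9 members, Odc1, Smox, Azin1 and Oaz2 higher and Sat2 lower, where 37.1% of all genes were called. MC011 differed in 1 of 9, Sat2, where 30.7% were called. Another 7 members had an adjusted p under 0.05 in MC011 with smaller folds. With no threshold on the fold change, 9901 of the 15153 genes tested passed in that comparison. The 2 lines differed from each other in 2 of 9, Odc1 and Oaz2, both higher in MC010, while 31.6% of all genes tested were called. The WT lines were called different in 0 of 9 members by edgeR and by DESeq2, where 4.95% of all genes were called in edgeR. An unadjusted p under 0.05 was met by 6 members in each, and by 4001 of 15153 genes in edgeR. These comparisons share lines and are not independent of each other.

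Each of the lines labelled IRF8 KO was set against each WT line, which gives 4 pairs. Odc1, Azin1, Smox and Paox were higher in 4 of 4 and Sat2 was lower in 4 of 4. The log2 ratio of line means ran from 0.17 to 1.07 for Odc1 and from 0.45 to 1.07 for Azin1, but from 0.29 to 0.42 for Paox. Oaz1 and Oaz2 were higher in 2 pairs and lower in 2. For 5 of the 9 members the libraries of the labels did not overlap, as they did not for 42.5% of all genes tested. Over the 8 libraries, log2 CPM of Odc1 had a Pearson r of 0.96 with Azin1, 0.92 with Oaz2 and -0.89 with Srm. These r are descriptions, since pairs of libraries share a line.

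Levels were set in order per length, as RPKM (the CPM divided by the length of all exons in kilobases). The mean over the 8 libraries was 133 for Srm, 124 for Odc1 and 106 for Oaz1, then 55.2 for Azin1, 37.7 for Amd1 and 27.6 for Oaz2. The genes of the set grouped here under catabolism were far lower, at 3.14 for Smox, 2.49 for Sat2 and 1.64 for Paox. Whether Sat2 acts on polyamines in these cells was not tested. Sat1 and Aoc1, which also belong to catabolism, were not analysed here, so the comparison does not cover catabolism as a whole. The lowest of the synthesis and control genes was 8.78-fold above the highest of these catabolic genes, and 7.83-fold with the longest coding transcript as the length. The order among the synthesis and control genes depended on that length, since Oaz1 then ranked first at 252 RPKM and Srm fell behind Odc1, at 159 and 190. It also depended on the line, with Srm above Odc1 in 6 of 8 libraries and Odc1 above Srm in the 2 libraries of MC010. Odc1 exceeded Oaz1 in only 4 of 8 libraries, and Smox exceeded Sat2 in 5 of 8, so these neighbours do not have a fixed order. The places of Oaz1 and Amd1 are also uncertain because of reads that fit Oaz1-ps and Amd2.

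**Figure D3:**
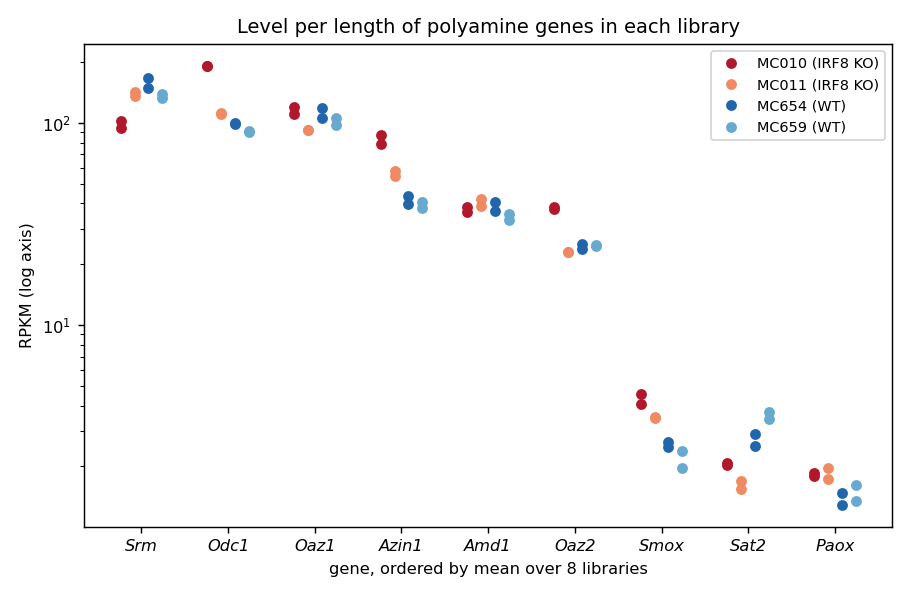
RPKM of each polyamine gene on a log axis, genes ordered by their mean over 8 libraries, points coloured by line with 2 points per line. Srm, Odc1 and Oaz1 lie near 100, Smox, Sat2 and Paox lie between 1.29 and 4.59, and the MC010 points are the lowest for Srm and the highest for Odc1.

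Odc1 and Azin1 were set over Oaz1, and Odc1 over the synthesis gene Srm, as ratios of RPKM within a library. Odc1 over Oaz1 was 1.60 and 1.72 in MC010, 1.21 in both MC011 libraries and 0.839 to 0.936 in the WT libraries. Azin1 over Oaz1 was 0.657 and 0.782 in MC010, 0.597 and 0.629 in MC011 and 0.334 to 0.418 in the WT libraries. Odc1 over Srm was 1.87 and 2.04 in MC010, 0.781 and 0.822 in MC011 and 0.597 to 0.690 in the WT libraries. In each of these ratios MC010 was highest, MC011 next and the WT lines lowest, without overlap. How often ratios of other genes take this order was not tested. Oaz2, the other antizyme gene of the set, was not used as a denominator. It was itself higher in MC010, at 37.4 and 38.3 RPKM against 22.9 to 25.3 in the other libraries. In MC010 against MC011, Oaz2 was higher by 0.72 on the log2 scale, more than Azin1 (0.55) and slightly less than Odc1 (0.78). Set over Oaz2, Azin1 would therefore be lower in MC010 than in MC011. The order of the antizyme ratios given above holds for Oaz1 only. Reads that also fit Oaz1-ps leave the level of Oaz1 in these ratios uncertain. The RNA ratios say nothing of protein, which antizyme controls after translation.

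The rest of the pathway was read from lists of 39 genes, of which 30 were in the table and 28 were tested. Sms, Oaz3, Sat1, Aoc1, Otc and Agmat were among those not analysed here. By label, 4 of the 28 were called higher, 3 lower and 21 not, against 22.5% of all genes tested (13.7% higher and 8.72% lower). In MC010 against the WT lines 7 were higher and 10 lower (37.1% of all genes), and in MC011 4 and 6 (30.7%). MC010 differed from MC011 in 5 higher and 8 lower (31.6%), and MC654 from MC659 in 1, Cav1 (4.95%). On line sums 0 of the 28, and 0 of all genes, were called by label in edgeR. There 8 had an unadjusted p under 0.05, as had 3658 of all genes.

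Azin2, a second antizyme inhibitor, was higher by label as well. It had 16.3 and 13.4 CPM in MC010, 6.86 and 6.89 in MC011, 1.91 and 1.48 in MC654, and 2.11 and 2.25 in MC659. The lines labelled IRF8 KO were well above both WT lines. The log2 fold change by label was 2.49 (SE 0.33, adjusted p = 0.000902), and it was 2.95 in MC010 and 1.84 in MC011 against the WT lines. MC010 exceeded MC011 by 1.11 on the log2 scale (adjusted p = 1.39e-06). On line sums its adjusted p was 0.125.

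In arginine and ornithine supply, which feeds ODC, 0 of 4 tested genes were called higher by label and 1 lower. Of all genes tested, 13.7% were called higher and 8.72% lower. Slc7a1, the main cationic amino acid transporter of most cells, had 89.7 and 88.1 CPM in MC010, 157 and 148 in MC011, and 226 to 241 in the WT libraries. It fell by 0.94 on the log2 scale by label (adjusted p = 0.00744), with 1.39 for MC010 and 0.61 for MC011 as the size of the drop against the WT lines. The adjusted p by label was 0.0648 without MC654 and 0.0833 without MC659. Its relative Slc7a2 went opposite ways, at 0.419 CPM on average in MC010, 20.1 in MC011, 9.02 in MC654 and 10.5 in MC659. Arg1, the arginase that makes ornithine, did too, at 3.68, 0.498, 2.68 and 1.71 CPM. Oat, which links ornithine to proline metabolism, was at -0.21 by label (adjusted p = 0.0347), under the fold threshold. Arg2 had 0 to 19 counts and was not tested.

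Methylthioadenosine is the by-product of spermidine and spermine synthesis. In the methionine cycle and its salvage, 0 of 7 were called higher by label and 1 lower, against 13.7% and 8.72% of all genes tested. The gene called lower was Mri1, a salvage enzyme. It averaged 38.4 and 35.9 CPM in MC010 and MC011 and 60.1 and 58.3 CPM in MC654 and MC659 (log2 -0.67, SE 0.06, adjusted p = 0.000118). Mtap, the phosphorylase that opens the salvage, had 1016 and 1057 CPM in MC010 and 257 to 283 CPM in the other 6 libraries. MC010 exceeded MC011 by 1.91 on the log2 scale (adjusted p = 2.55e-14), while MC011 was at 0.06 against the WT lines (adjusted p = 0.177). By label Mtap was not called in edgeR (log2 1.31, adjusted p = 0.0593), and it was called in DESeq2 (adjusted p = 0.0119). Adi1, a later salvage enzyme, averaged 32.8 CPM in MC010, 68.8 in MC011, 58.3 in MC654 and 57.2 in MC659. Mat2b, a regulatory subunit of methionine adenosyltransferase, was called higher in MC010 (log2 0.66, adjusted p = 5.21e-09), and Mat2a was called in neither line.

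The genes next to Mtap on chromosome 4 were looked at after its values had been seen. Cdkn2a, 93389 bases downstream, averaged 5.79 CPM in MC010 and 315, 354 and 326 CPM in MC011, MC654 and MC659. Cdkn2b, 125207 bases downstream, averaged 1.01 CPM in MC010 and 62.8, 60.3 and 67.3 CPM in the other lines. MC010 was therefore 5.74 and 5.94 lower than MC011 on the log2 scale (adjusted p = 1.19e-13 and 1.23e-16), opposite in direction to Mtap.

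Sat2 likewise lies 30150 bases after the end of Trp53, which encodes p53, on chromosome 11. Trp53 averaged 344 CPM in MC010, 165 in MC011, 31.3 in MC654 and 29.8 in MC659, a log2 fold change by label of 3.06 (adjusted p = 0.000164). Of the other genes around it, Wrap53 was at 0.01 (adjusted p = 0.923) and Fxr2 at -0.17 (adjusted p = 0.203), and Atp1b2 was not tested, at 2 to 17 counts. By label Sat2 was lower and Trp53 higher, but between the lines labelled IRF8 KO, MC010 had more of both, with Sat2 at 0.35 (adjusted p = 0.0546) and Trp53 at 1.06 on the log2 scale above MC011. These neighbours, too, were chosen after the values had been seen.

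Among 8 tested transport genes, 3 were called higher by label and 0 lower, against 13.7% and 8.72% of all genes tested. Cav1, which encodes caveolin 1 and is linked to polyamine uptake by endocytosis, had 523 and 533 CPM in MC010, 704 and 721 in MC011, 198 and 204 in MC654, and 390 and 373 in MC659 (log2 1.09, SE 0.26, adjusted p = 0.0124, and 0.0861 without MC011). The WT lines differed from each other as well, with MC654 at -0.93 against MC659 (adjusted p = 2.76e-09). Gpc1, a heparan sulfate proteoglycan that takes part in uptake of spermine, averaged 316, 181, 164 and 154 CPM in the 4 lines in the same order (log2 0.65, adjusted p = 0.0403), and it lost the call on leaving out any library of MC010 or of the WT lines. Slc47a1 was called on 1 to 28 counts per library and lost the call in most alternatives. Slc12a8 and Slc18b1 were not called by label but differed between MC010 and MC011. Slc3a2 was at -0.46 by label (adjusted p = 0.00792), under the fold threshold, and was called lower in MC010. Atp13a2 and Atp13a3, polyamine pumps of the P5B ATPase group, were called in no comparison. Atp13a4, not tested, had up to 280 counts, and its mean was 2.48 CPM in MC010 and at most 0.0438 CPM in the other lines.

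Spermidine is the donor for hypusine, a modified lysine of the translation factor eIF5A. Of the 4 genes of this list, 0 were called higher by label and 1 lower, against 13.7% and 8.72% of all genes tested. Dhps, the enzyme that transfers the spermidine part, averaged 29.8 and 35.5 CPM in MC010 and MC011 against 52.4 and 49.4 CPM in MC654 and MC659 (log2 -0.64, SE 0.08, adjusted p = 0.000697, and -0.54 without MC010). Eif5a was the most abundant gene of the list, at 1198, 1468, 1660 and 1490 CPM, and was not called (log2 -0.24, adjusted p = 0.0769). Dohh, which completes the modification, was called only between MC010 and MC011 (log2 -0.68, adjusted p = 0.000463).

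Myc, Mycn and Max, transcription factor genes with Odc1 among their known targets, were lower in MC010, the line with the highest Odc1. Myc had 119 and 111 CPM in MC010, 506 and 482 in MC011, 820 and 766 in MC654, and 877 and 893 in MC659. MC010 had the lowest Myc, and the label groups did not overlap. Myc was called lower in MC010 (log2 -2.86, adjusted p = 1.33e-16) and in MC011 (log2 -0.76, adjusted p = 3.93e-10) against the WT lines. By label the log2 fold change of -1.46 had an adjusted p of 0.0568 in edgeR and of 0.00826 in DESeq2. Mycn averaged 0.212, 1.39, 2.49 and 2.27 CPM, and Max 49.9, 95.4, 99.2 and 95.4 CPM in MC010, MC011, MC654 and MC659. By label they were not called (adjusted p = 0.137 for Mycn and 0.198 for Max).

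**Figure D4:**
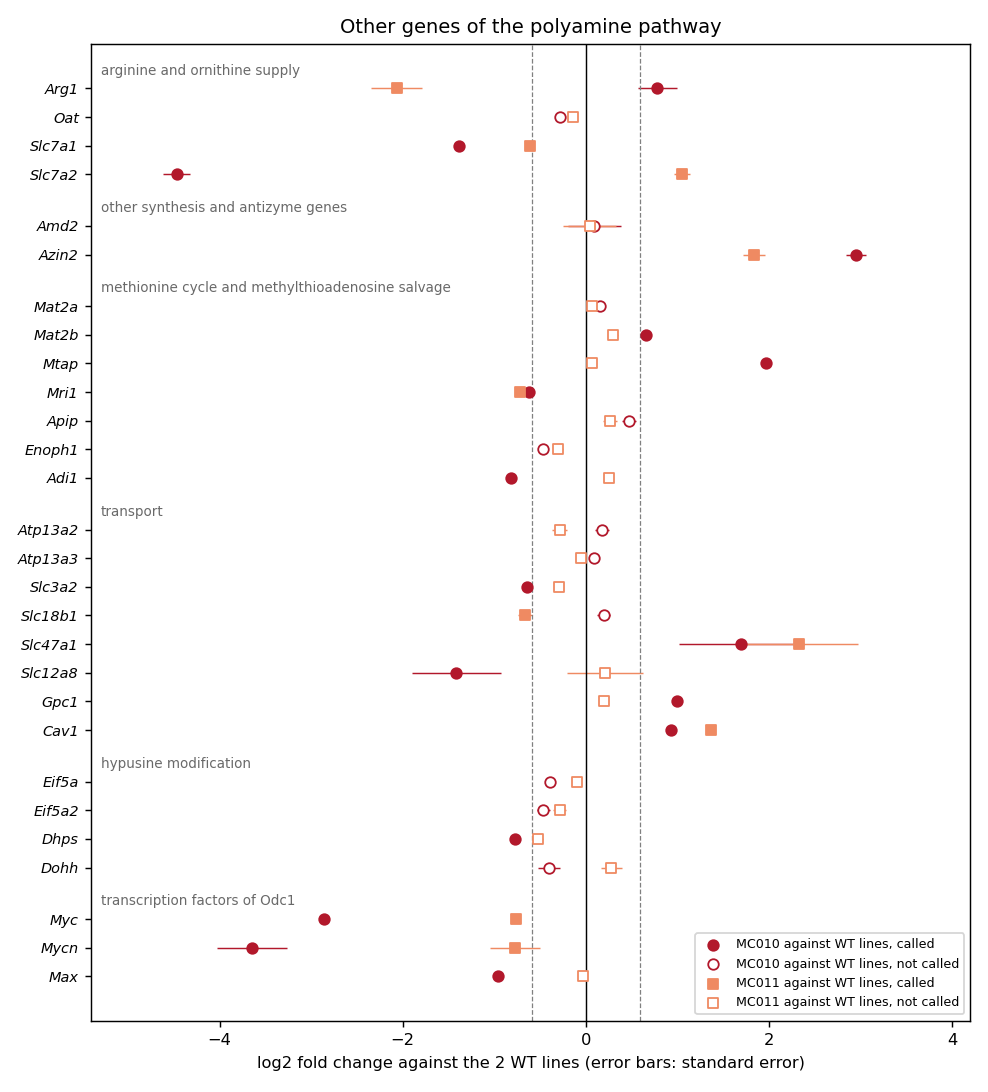
Log2 fold change against the WT lines, with its standard error, of the 28 tested pathway genes outside the set, grouped by list. Circles are MC010 and squares are MC011, filled symbols were called, and dashed lines mark 0.59 in either direction. Azin2 and Mtap lie far to the right in MC010, Slc7a2 and Myc far to the left, and Arg1 and Slc7a2 lie on opposite sides of 0 in the 2 lines.

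**Figure D5:**
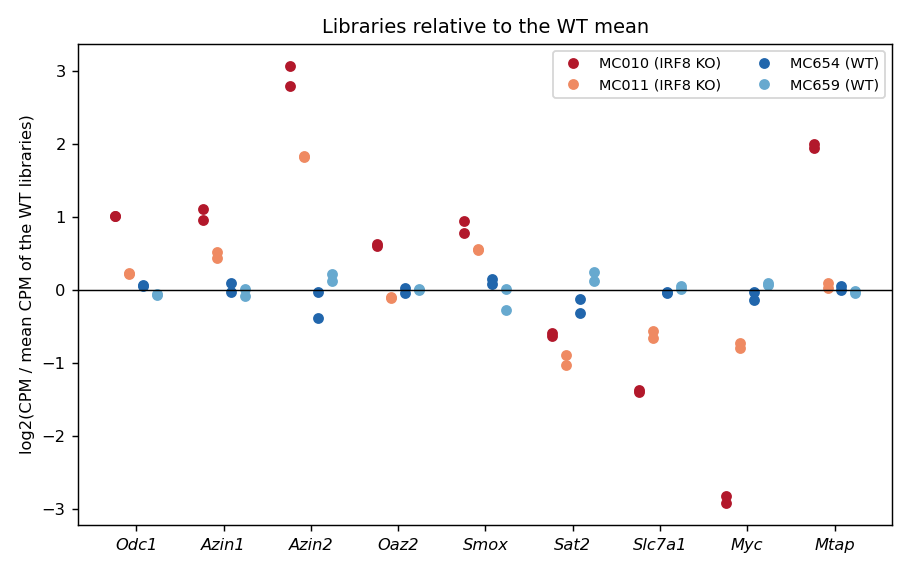
Log2 ratio of the CPM of each library to the mean CPM of the 4 WT libraries for 6 polyamine genes and for Slc7a1, Myc and Mtap, 2 points per line. MC010 lies above 0 for Odc1, Azin1, Azin2, Oaz2, Smox and Mtap and below 0 for Sat2, Slc7a1 and Myc, and MC011 has the same sign as MC010 except for Oaz2.

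For the 3 members whose line means spanned more than 1 on the log2 scale, the genes with the most similar pattern were sought among 10677 genes with a mean log2 CPM of at least 1. Over the 8 libraries, log2 CPM of Odc1 was closest to Txnrd1 (Pearson r = 0.9987), Syne1 (0.9973) and Fip1l1 (0.9969). Azin1 was closest to Zfand5 (0.9989), Nuak1 (0.9978) and Tgfbr1 (0.9978). Sat2 was closest to Prdm9 (0.9973), Ankrd1 (0.9951) and Ghitm (0.9893). The 8 libraries come from 4 lines, and these values describe likeness only.

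Promoter windows from RefSeq (GRCm38.p6, 250 bases before to 50 after a transcription start) were at hand for 7 of the 9 members. The parts of those of Odc1 and Sat2 that lie before the gene start of the table are shown, since Odc1 was the member with the widest gap between MC010 and MC011 and Sat2 the member called lower. Both are on the + strand, chr12:17544623-17544793 for Odc1 and chr11:69621802-69622023 for Sat2. Capitals mark GC boxes, GGGCGG or its reverse complement.
Odc1: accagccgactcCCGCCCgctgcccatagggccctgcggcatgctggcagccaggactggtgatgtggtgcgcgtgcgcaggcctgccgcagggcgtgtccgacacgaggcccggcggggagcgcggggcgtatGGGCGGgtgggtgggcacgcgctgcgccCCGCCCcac
Sat2: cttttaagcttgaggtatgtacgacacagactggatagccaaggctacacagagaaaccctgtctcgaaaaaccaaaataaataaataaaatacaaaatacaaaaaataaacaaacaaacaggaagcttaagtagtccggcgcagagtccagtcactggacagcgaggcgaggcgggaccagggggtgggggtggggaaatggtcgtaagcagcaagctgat
The Odc1 stretch holds 3 GC boxes in 171 bases and is 77.2% G and C, and the Sat2 stretch holds 0 in 222 bases and is 46.0% G and C. In the full windows, searched on both strands, the GC box was found for 5 of 7 members (Amd1, Oaz2, Odc1, Paox and Smox) and in 35.7% of 32851 windows of the same length. The CCAAT box was found for Oaz1 and Sat2 and in 37.4% of windows, and the TATA box (TATAAA) for Oaz1 and in 13.6%. The E-box CACGTG (7.15% of windows), the interferon-stimulated response element core (3.44%), the ETS-IRF composite element (2.72%) and the p53 half-site (8.36%) were found for 0 of 7. These letter matches in short windows say nothing of binding.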

How the data were processed

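RNA was sequenced from cultured cells of 4 tumor lines, 2 libraries per line. Per the labels, a stranded mRNA kit was used, reads were aligned to mm10 (GRCm38.p6) with STAR and counted per gene with HTSeq (STAR 2.7.3a and HTSeq 0.11.2 in the submitters' processing notes). The deposited table gives a raw count per gene and library, used here, and a signal, which the authors made by dividing the count by a size factor, not used in the tests. Columns of the authors' own comparison (fold changes, errors and p-values) were not used.

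The tests used edgeR 4.0.16 (R 4.3.3) on genes that passed filterByExpr by label, with TMM scaling, the robust quasi-likelihood test and Benjamini-Hochberg adjustment over all 15153 genes tested. The first fit compared labels in all 8 libraries, and the second had 1 group per line. Alternatives used DESeq2 1.42.0, voom in limma 3.58.1 with a random effect for the line, no filter, upper-quartile scaling, a library-number block, line sums, and each library or line left out. Alternative fits for listed pathway genes, and for the fold changes of single members against the WT lines, were added after seeing the data. The fits were run on simulated counts with known changes. These counts had the spread between libraries of a line but no difference between lines of a label. They therefore cannot test the comparison by label where lines differ. A floor of 3 counts is 0.0262 to 0.0408 CPM, and covers counting error only. The libraries of a line differed by a chi-square of 7.59 to 13 per degree of freedom and were kept as separate libraries.

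The members and lists were chosen with earlier results of these data known. Named genes were the members, listed pathway genes called in any comparison or at 0, other listed genes given as background, Irf8, Trp53, and the 3 genes most like each member spanning over 1 in log2 line means. Gene positions are those of the table, and lengths and overlaps come from GENCODE M21 (GRCm38).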

Additional observations from a re-analysis of the deposited data

Results flagged for a closer look

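The difference of MC010 from MC011, tested directly in edgeR's fit with a group per line, passed both thresholds for 15 of the 37 tested genes of polyamine metabolism and its lists, 2 of them from the set of 9, where 31.6% of all genes tested passed. As log2 differences these were 0.78 for Odc1, 0.72 for Oaz2, 2.85 for Arg1, -0.78 for Slc7a1, -5.52 for Slc7a2, 1.11 for Azin2, 1.91 for Mtap, -1.07 for Adi1 (-1.065), 0.86 for Slc18b1, -1.63 for Slc12a8 (-1.625), 0.80 for Gpc1, -0.68 for Dohh, -2.10 for Myc, -2.87 for Mycn and -0.94 for Max. Both lines carry the label IRF8 KO, and for each of these genes the difference from the same WT lines therefore depends on which line is taken. The direct test compares 2 tumors of 1 label and does not measure an effect of the label. The spread in this test is that between 2 libraries of a line.

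The level of Adi1 in library 2 of MC654, 59.59 CPM, lay far from the other 3 libraries labelled WT relative to their range. The other libraries labelled WT had 56.93 to 57.21 CPM, so the difference itself was small. It was the only such library in 78 groups of 4 examined. Each group holds 2 libraries from each of 2 lines, which are not independent, so no rate by chance is given.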

How the results depend on the processing

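The set of members called by label, 4 in edgeR, was the same with DESeq2, without the filter and with upper-quartile scaling. It was 0 on line sums, 1 with the line as a random block, 1 without MC010, 2 without MC654, 0 without MC659 and 5 without MC011. The number of all genes called by label, 3404, became 0 on line sums (3658 at an unadjusted p under 0.05) and 1876 with the random block. It became 4735 without MC010, 2079 without MC654, 1884 without MC659 and 5827 without MC011. Line sums leave 2 lines against 2, and the libraries of a line had a consensus correlation of 0.828. With no threshold on the fold change, the genes called were 5675 by label, 10697 for MC010 and 9901 for MC011 against the WT lines, 9550 between MC010 and MC011, and 2198 between the WT lines, and the members called in the last 4 were 7, 8, 6 and 2. Leaving out single libraries gave 3 to 4 members by label, 4 to 6 for MC010, 1 to 2 for MC011 (Smox was added without MC659 library 2), 2 to 3 between these lines and 0 between the WT lines, and 2908 to 3623, 5290 to 5758, 4454 to 4782, 4525 to 4943 and 555 to 759 genes in the same order. The sign turned for Amd1, Oaz1, Oaz2 and Paox, none of them called in the comparison concerned. By label, Amd1 was -0.004203 without MC659, Oaz1 0.1021 without MC011, 0.02596 without MC654 and 0.007535, 0.007631 and 0.005177 without MC011 library 1, MC011 library 2 and MC654 library 1, and Oaz2 -0.1232 without MC010. Amd1 in MC010 against the WT lines ran from -0.004706 (without MC654 library 1) to 0.07097 as single libraries were left out. Paox between MC010 and MC011 ran from -0.1107 to 0.08235, and was 0.006523 and 0.08235 without library 1 of either line. The library number was not shown to pair libraries, since differences between library 1 and 2 correlated between lines at -0.12 to 0.19. With it as a replicate block 3 members and 3106 genes were called by label, Odc1 being lost (adjusted p = 0.0524). Of the listed pathway genes, 7 were called by label, 0 on line sums, 16 without MC011 and 4 without MC654. The alternatives for pathway genes, for fold changes of single members in MC010 or MC011 against the WT lines or between the WT lines, and for transcript length were chosen after seeing the data. Sat2, at 190 to 467 counts per library, had the fewest counts of the members.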
